A study of Mus musculus with 10 samples.

Results

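The ephrins, Slits and netrins and their receptors were compared between hearts of wild type (WT) and CAR knockout (CAR KO) mouse embryos. CAR, the coxsackievirus and adenovirus receptor, is an adhesion molecule of the immunoglobulin superfamily and is encoded by Cxadr. The genes were chosen by name from the annotation of the arrays: ephrins A1 to A5 and B1 to B3, all Eph receptors, Slit1 to Slit3, Robo1 to Robo4, the netrins 1 to 5 and Unc5a to Unc5d. This gave 36 of the 19938 genes that have a row of their own on the array. Of these 36, 8 encode ephrins (5 of type A, 3 of type B), 13 Eph receptors (9 EphA, 4 EphB), 3 Slits, 4 Robo receptors, 4 netrins and 4 Unc5 receptors. Ephb2 is not among the rows of a single gene and was not analysed here. A gene with several rows was represented by the brightest, which applied to Epha10, Ephb1 and Unc5d (39 rows in all).

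Both groups were E10.5 hearts, untreated and frozen after dissection, from matings of CAR +/- mice of the line B6.Cg-Cxadr tm1/Fgr. The CAR KO embryos lacked CAR in all cells, and the WT embryos were CAR +/+. Each genotype was represented by 5 samples of 3 pooled hearts, measured on Affymetrix Mouse Gene 1.0 ST arrays, whose probes lie along the exons of each gene. The labels do not say whether the samples came from separate litters, so that p-values measure the spread between these samples.

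Guidance molecules were first described as cues that attract or repel growing axons, and the same families shape the heart and vessels. Ephrins are bound to the cell surface, by a lipid anchor in type A and by a transmembrane stretch in type B, and signal between touching cells through Eph receptor tyrosine kinases. Slits are secreted and bind Robo receptors, and netrins are laminin-like proteins that bind Dcc, neogenin and the Unc5 receptors. In the embryo, ephrin-B2 marks arteries and EphB4 veins, EphA3 and ephrin-A1 are known from the endocardial cushions, and Slit and Robo act in the forming heart tube and its septa.

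Values are log2 signals, so that a difference of 1 is a doubling, and differences are CAR KO minus WT. They were tested with limma, adjusted by Benjamini-Hochberg over 28944 transcript clusters (the rows of the array without controls), with an adjusted p under 0.05 taken as a call. Genes whose mean lay over 6.50 are called above background. This level is the 95th percentile of 1223 clusters of odorant and related receptors. Array medians lay between 7.65 and 7.73, and samples correlated at 0.987 to 0.998. The targeted gene Cxadr averaged 8.38 ± 0.18 (SD, n = 5) in WT hearts, against 6.46 ± 0.17 (SD, n = 5) in the knockout, without overlap (log2 fold change -1.91, standard error 0.10, adjusted p = 1.40e-05 from limma), and was the only cluster called. All 12 cardiomyocyte markers examined lay above background, with a mean of 12.83 to 13.17 per sample.

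Most guidance genes had a signal above background in the E10.5 heart samples, and none differed between the genotypes beyond the spread between samples. Above background lay 32 of the 36 genes, against 14688 of the 19938 genes with a row of their own. Epha5, Epha6, Ntn5 and Robo3 did not, and their log2 differences were 0.03, 0.06, 0.01 and 0.01. None of the 36 was called by limma (all adjusted p = 0.99997), against 0.00345% of all transcript clusters, and none by the methods' t-test with the same adjustment. An unadjusted p under 0.05 was found for 0 of 36, against 2.40% of all clusters. The genotypes overlapped for all 36 genes, whereas they did not overlap for 0.359% of clusters. The smallest p of the two-sided exact permutation test was 0.111 (Ephb6), where 5 against 5 samples can reach 0.00794.

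How large a difference the samples leave possible is given by the 95% confidence interval of each gene. For 34 of the 36 genes it did not reach a 1.5-fold change to either side, as for 97.3% of all clusters, and the exceptions were Slit2 and Epha3. Within a 1.2-fold change lay 15 of 36, against 60.6% of clusters. Of the 32 genes above background, 30 and 12 lay within these limits, against 97.1% and 63.9% of the 14688 genes above background. These intervals come from limma, and those of the methods' t-test lay within 1.5-fold for 32 of the 36 genes. The intervals are not adjusted for the number of genes, and arrays compress differences of dim genes. With whole hearts, fewer cells of a type and less RNA per cell cannot be told apart.

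**Figure D1:**
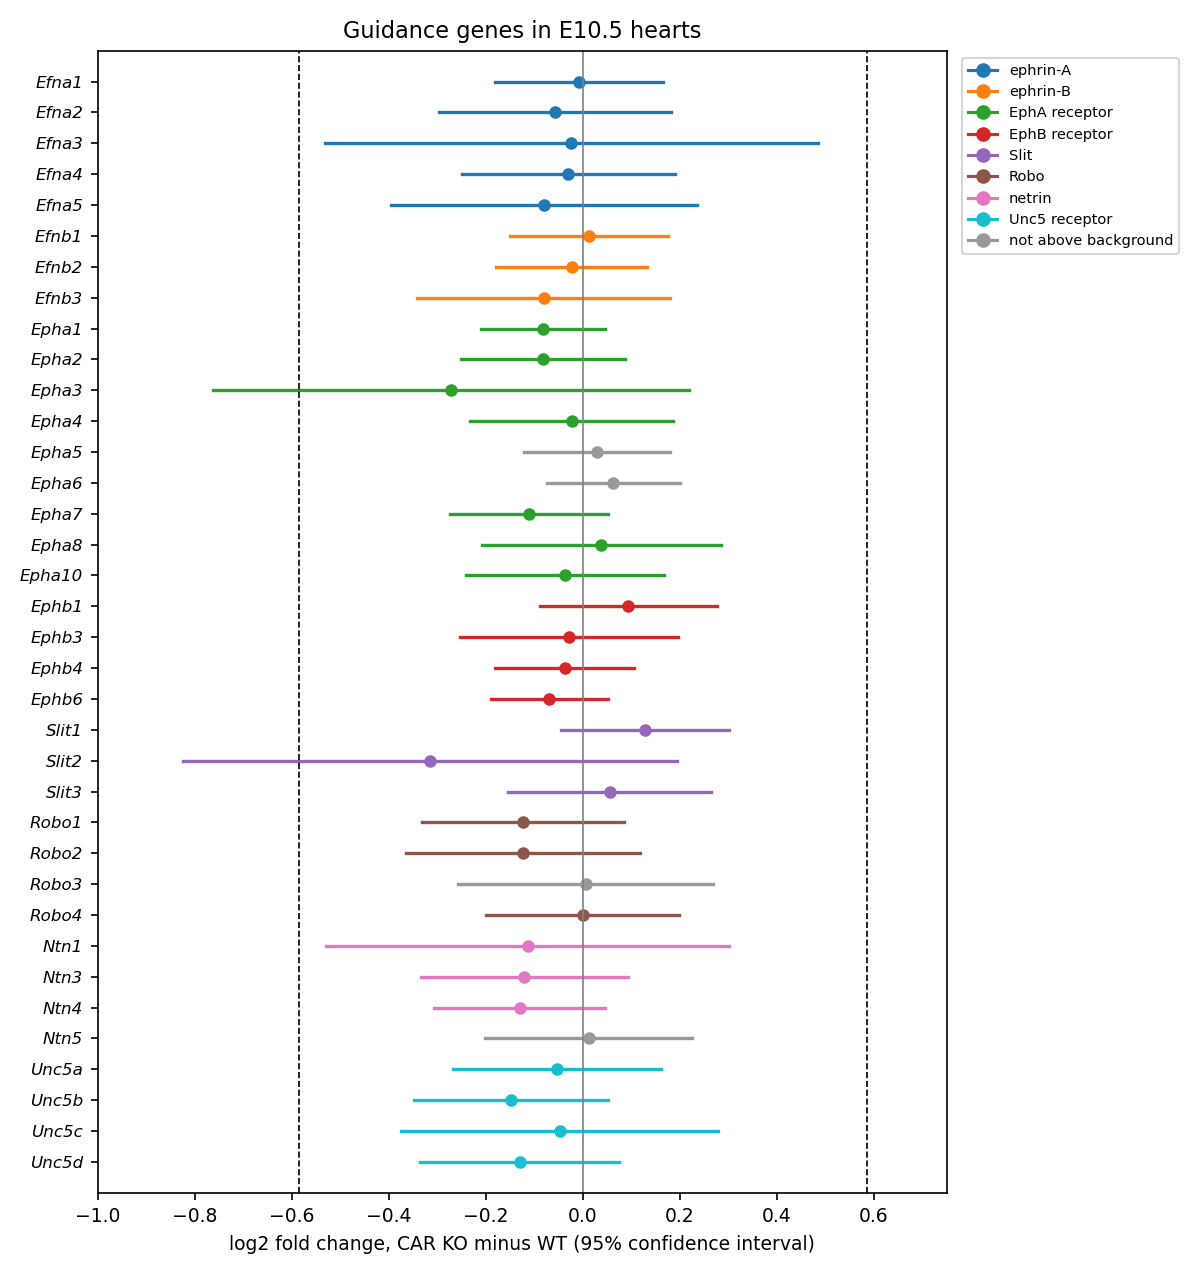
Differences of 36 guidance genes between CAR KO and WT hearts on the log2 scale with 95% confidence intervals, coloured by family, with genes below the background level in grey and dashed lines at a 1.5-fold change. Every interval contains 0, and those of Epha3 and Slit2 pass the left dashed line.

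By sign alone, 27 of the 36 genes were lower and 9 higher in CAR KO hearts, with a median log2 fold change of -0.043. Over all clusters 43.9% were lower with a median of 0.011, and of the genes above background 50.1%. The split rested in part on 2 samples. Without WT sample 5 and CAR KO sample 5, an alternative chosen after the data were seen, 20 genes were lower and 16 higher, with a median of -0.010. The ephrin-A genes changed most in this respect, from 5 of 5 lower to 0 of 5.

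The ephrin-B genes were bright in both genotypes, with small differences between them. Efnb2 encodes ephrin-B2, the arterial ligand. Its log2 signals were 10.79, 10.63, 10.95, 10.85 and 11.00 in WT samples 1 to 5 and 10.84, 10.86, 10.85, 10.74 and 10.82 in CAR KO samples 1 to 5. The CAR KO values lay within the range of the WT values. Efnb2 had a log2 fold change of -0.02, and its interval of -0.18 to 0.13 corresponds to -11.7% to 9.62% on the linear scale. Efnb1, an X-linked gene with a role in tissue boundaries, was at 10.40, 10.45, 10.43, 10.47 and 10.46 in WT and at 10.41, 10.56, 10.31, 10.32 and 10.68 in CAR KO hearts. Here the CAR KO samples spread to both sides of the WT samples. The difference was 0.01 (interval -0.15 to 0.18). Efnb3, better known from the nervous system, differed by -0.08 (interval -0.34 to 0.18), and its lowest value of 10.32 was that of CAR KO sample 5.

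Ephb4 encodes the venous receptor of ephrin-B2. In WT samples it was at 10.06, 10.09, 10.06, 10.11 and 10.17, and in CAR KO samples at 10.16, 10.14, 9.96, 10.15 and 9.90. CAR KO samples 3 and 5 were the lowest of all 10, and the other 3 lay among the WT samples. The log2 fold change of Ephb4 was -0.04 (interval -0.18 to 0.11, or -11.8% to 7.62%), so that both genes of the arterial and venous pair had intervals within 1.2-fold. Ephb3, a further receptor of ephrin-B ligands, differed by -0.03 and Ephb6, whose kinase domain is inactive, by -0.07. Ephb1 averaged 7.26 ± 0.15 (SD, n = 5) in WT hearts, against 7.35 ± 0.12 (SD, n = 5) in the knockout, a difference of 0.09 (interval -0.09 to 0.28), and its second, dimmer row differed by 0.13.

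The promoters of this pair are shown because both genes varied little between samples, with pooled SDs within genotypes of 0.107 (Efnb2) and 0.0935 (Ephb4). Among genes above background these SDs had percentiles of 35.7 and 25.8. The windows hold the 250 bases before the annotated transcript start (RefSeq, GRCm38.p6), 5′ to 3′ on the strand of the gene, at chr8:8661243-8661492, minus strand, for Efnb2 and at chr5:137349859-137350108, plus strand, for Ephb4. Capitals mark matches to 3 motifs on either strand. The GC box was searched as GGGCGG. The second motif was CCAAT, and the third was the TATA box, searched as the letters TATAAA. No match shares letters with another.
Efnb2: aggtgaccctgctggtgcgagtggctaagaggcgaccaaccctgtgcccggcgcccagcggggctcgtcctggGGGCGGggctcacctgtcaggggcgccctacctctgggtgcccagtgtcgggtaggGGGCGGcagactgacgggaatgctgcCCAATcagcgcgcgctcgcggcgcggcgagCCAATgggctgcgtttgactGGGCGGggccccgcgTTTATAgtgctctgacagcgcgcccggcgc
Ephb4: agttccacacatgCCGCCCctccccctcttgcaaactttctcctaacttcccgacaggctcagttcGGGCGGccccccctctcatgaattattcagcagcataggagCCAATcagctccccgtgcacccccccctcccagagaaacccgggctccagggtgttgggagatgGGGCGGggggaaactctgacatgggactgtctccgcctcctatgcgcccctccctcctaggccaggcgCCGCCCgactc
The Efnb2 window holds 3 GC boxes, 2 CCAAT boxes and 1 TATA box, and the Ephb4 window 4 GC boxes, 1 CCAAT box and no TATA box. Promoter windows were found for 32 of the 36 genes (37 windows), and not for Efnb3, Ntn1, Slit1 and Unc5d. A GC box was present in 26 of the 37 windows (70.3%), against 32.7% of all 32851 windows and 42.6% of 21263 windows of protein-coding genes. CCAAT boxes were found in 32.4% of the 37 windows, against 33.8% of all windows, and TATA boxes in 5.41%, against 12.4%. The windows of the guidance genes held a median of 16 CpG dinucleotides, those of all protein-coding genes 10. Such matches describe the letters of these windows only.

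Among the ephrin-A genes the largest spread was that of Efna3, and the genotypes were close for all 5. Efna1, the ephrin-A ligand best known from endothelium, was at 9.90, 9.9997, 10.17, 9.97 and 10.01 in WT and at 10.17, 10.07, 10.01, 9.99 and 9.77 in CAR KO samples. The highest value of either genotype was 10.17, and the lowest was that of CAR KO sample 5. The difference of Efna1 was -0.01 (interval -0.18 to 0.16, or -11.8% to 12.1%). Efna2, Efna4 and Efna5 differed by -0.06, -0.03 and -0.08. For each of these 3 genes the highest value was that of WT sample 5, at 10.09, 9.74 and 9.92. Efna3 was at 7.07, 6.94, 7.50, 7.30 and 8.30 in WT and 7.28, 7.28, 7.11, 7.41 and 7.92 in CAR KO samples, and samples 5 stood above the other samples of their genotype. Its difference was -0.02, with an interval of -0.53 to 0.48. Efna1, Efna3 and Efna4 are neighbours on chromosome 3, between 89271730 and 89338028 (GRCm38.p6).

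Of the 9 EphA receptor genes, 7 were above background. Epha3, which takes part in the formation of the atrioventricular cushions, had one of the 2 intervals that passed a 1.5-fold change. Its log2 signals were 8.43, 8.65, 9.18, 9.04 and 9.63 in WT and 8.89, 8.55, 8.42, 8.42 and 9.28 in CAR KO samples. WT sample 5 and CAR KO sample 5 were the highest, and the lowest values of the genotypes nearly coincided. The log2 fold change of Epha3 was -0.27 (standard error 0.22, interval -0.76 to 0.22, or -41.1% to 16.5%, adjusted p = 0.99997 from limma), and it ranged from -0.41 to -0.11 under the alternatives run. Its promoter window, at chr16:63864176-63864425, minus strand, is shown because Epha3 varied far more between samples than Efnb2 and Ephb4, with a pooled SD of 0.421 (percentile 98.2 among genes above background).
Epha3: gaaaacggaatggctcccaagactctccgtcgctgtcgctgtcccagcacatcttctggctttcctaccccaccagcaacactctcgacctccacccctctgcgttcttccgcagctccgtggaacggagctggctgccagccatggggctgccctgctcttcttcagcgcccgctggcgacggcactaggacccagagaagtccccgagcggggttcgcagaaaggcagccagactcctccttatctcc
None of the 3 motifs is present in these 250 bases.

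Epha7 and Epha1 were among the 6 genes with the smallest p. Epha7, a receptor best known from growing axons, was at 11.01, 10.84, 10.92, 11.04 and 10.77 in WT and at 11.01, 10.76, 10.74, 10.78 and 10.74 in CAR KO samples. CAR KO samples 2, 3 and 5 lay below all WT samples, and CAR KO sample 1 lay among the highest. The difference was -0.11 (interval -0.27 to 0.05). Epha1, known from epithelia, was at 8.23, 8.18, 8.30, 8.27 and 8.21 in WT and 8.06, 8.24, 8.25, 8.17 and 8.06 in CAR KO samples, with CAR KO samples 1, 4 and 5 below all WT samples. It differed by -0.08 (interval -0.21 to 0.05). Epha2 and Epha4 differed by -0.08 and -0.02. Epha8 averaged 7.01 ± 0.13 (SD, n = 5) in WT hearts, against 7.05 ± 0.25 (SD, n = 5) in the knockout, a difference of 0.04. The brightest row of Epha10, a receptor with an inactive kinase domain, differed by -0.04 and its other row by 0.13, neither with a p under 0.05.

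Slit2 had the largest difference of the guidance genes and the widest interval. Slit2 and Slit3 encode secreted ligands that are expressed in the developing heart. The log2 signals of Slit2 were 10.20, 10.63, 10.77, 10.74 and 10.41 in WT and 10.64, 10.53, 9.74, 10.76 and 9.51 in CAR KO samples. CAR KO samples 3 and 5 lay below all other samples, and the other 3 CAR KO samples lay within the WT range. Its log2 fold change came to -0.31 (standard error 0.23, limma adjusted p = 0.99997) and its interval of -0.82 to 0.19 corresponds to -43.5% to 14.4%. Without CAR KO sample 5 it was -0.13, and without CAR KO sample 3 it was -0.19. Under the alternatives run, Slit2 remained lower in CAR KO hearts (-0.45 to -0.13), with a smallest unadjusted p of 0.0774. The window before its transcript start, at chr5:47982905-47983154, plus strand, is shown for the same reason (pooled SD of 0.437, percentile 98.4). It lies within the annotated span of Slit2, which begins at 47981291 on chromosome 5.
Slit2: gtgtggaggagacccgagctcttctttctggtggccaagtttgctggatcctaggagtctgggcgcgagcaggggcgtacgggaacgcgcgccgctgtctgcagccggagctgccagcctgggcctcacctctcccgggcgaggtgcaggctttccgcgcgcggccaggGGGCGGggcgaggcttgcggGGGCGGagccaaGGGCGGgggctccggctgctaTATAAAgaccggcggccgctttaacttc
It holds 3 GC boxes and 1 TATA box.

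Slit3 was at 10.44, 10.21, 10.24, 10.29 and 10.07 in WT and at 10.15, 10.59, 10.37, 10.14 and 10.28 in CAR KO samples, with a difference of 0.06 (interval -0.15 to 0.26). CAR KO samples 3 and 5, the lowest for Slit2, lay within the WT range for Slit3. Slit1, mainly a gene of the nervous system, was at 6.80, 6.97, 6.57, 6.83 and 6.72 in WT and 6.86, 7.06, 6.89, 6.94 and 6.78 in CAR KO samples, little above background. It differed by 0.13 (interval -0.05 to 0.30), the largest difference towards higher values in CAR KO hearts.

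**Figure D2:**
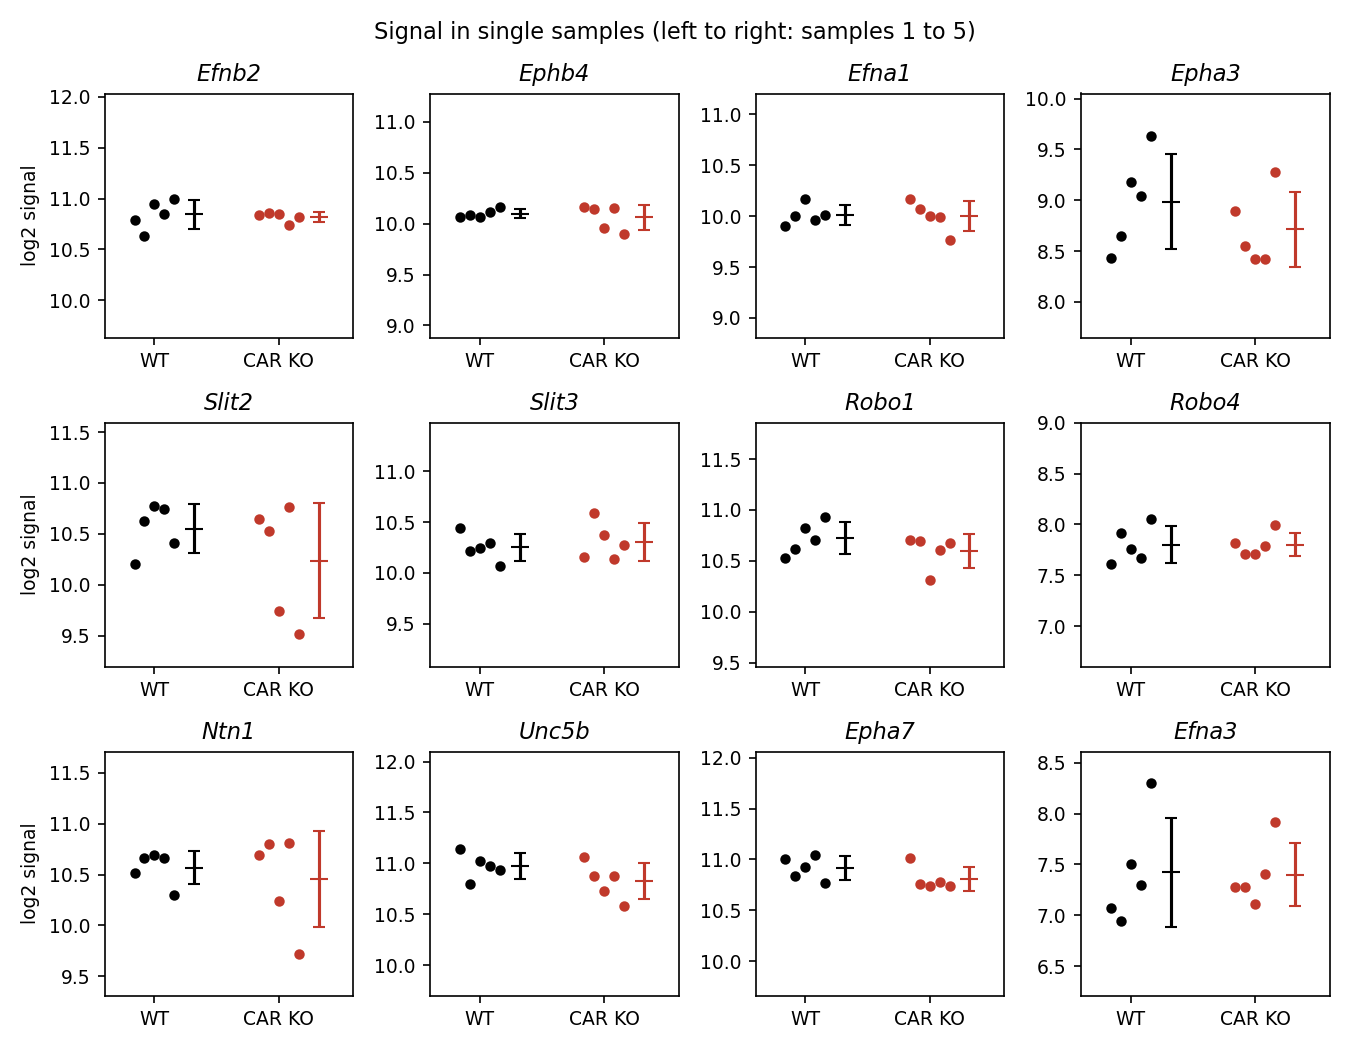
Log2 signal of 12 guidance genes in each of the 5 WT (black) and 5 CAR KO (red) samples, with mean and SD beside them; all panels span the same number of log2 units. The genotypes overlap in each panel, and CAR KO samples 3 and 5 stand below the others for Slit2 and Ntn1.

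Robo1 and Robo2, the receptors of Slits in many tissues, differed by nearly the same amount. For Robo1 the values were 10.53, 10.62, 10.83, 10.70 and 10.93 in WT and 10.70, 10.69, 10.31, 10.61 and 10.68 in CAR KO samples, and CAR KO sample 3 stood below all others. For Robo2 they were 9.43, 9.72, 9.77, 9.70 and 9.93 in WT and 9.75, 9.56, 9.26, 9.60 and 9.77 in CAR KO samples, again with CAR KO sample 3 as the lowest. Both had a log2 fold change of -0.12, with intervals of -0.33 to 0.08 (Robo1) and -0.37 to 0.12 (Robo2). Robo4, a receptor of endothelial cells, was at 7.61, 7.91, 7.76, 7.67 and 8.06 in WT and 7.82, 7.71, 7.71, 7.79 and 7.99 in CAR KO samples. Its means were 7.80 in both genotypes, and the interval ran from -0.20 to 0.20.

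Robo1 and Robo2 lie close to Cxadr itself. Cxadr is located on chromosome 16 from 78301226 to 78359785, Robo2 from 73891976 to 75447443 and Robo1 from 72027518 to 73047491 (GRCm38.p6), at distances of 2.85 and 5.25 Mb. Epha3 (63543532 to 63864175) and Epha6 (59641433 to 60610911) follow at 14.4 and 17.7 Mb, and Ephb3 at 57.1 Mb. Both Robo genes and Epha3 were lower in CAR KO hearts without passing the test. Of the 23 genes above background within 10 Mb of Cxadr, apart from Cxadr and both Robo genes, 15 were lower, with a median of -0.040, and 1 had an unadjusted p under 0.05, where 2.89% of all genes above background did.

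**Figure D3:**
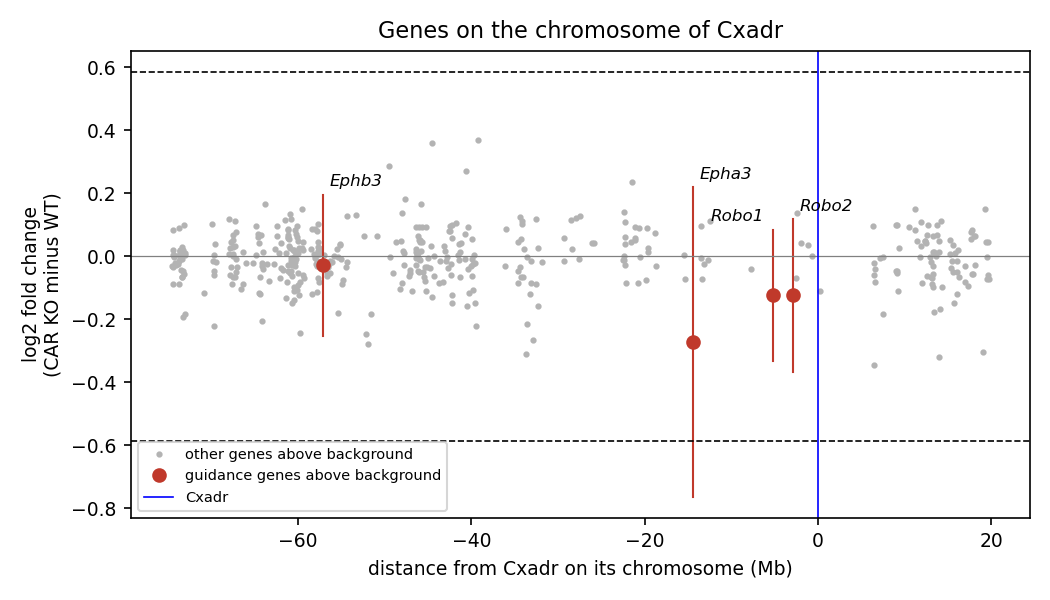
Difference between CAR KO and WT hearts (log2) of genes above background on chromosome 16 against their distance from Cxadr in Mb; red points are guidance genes with 95% confidence intervals, grey points other genes, with dashed lines at a 1.5-fold change. Robo2 and Robo1 lie 2.85 and 5.25 Mb from Cxadr, and all 4 red intervals contain 0.

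The netrins and Unc5 receptors had the lowest family medians, at -0.12 and -0.09 on the log2 scale, but without samples 5 of both genotypes these were -0.02 and -0.06, with -0.08 for the Robo genes. Ntn1, the netrin best known from commissural axons, was at 10.51, 10.66, 10.69, 10.66 and 10.30 in WT and 10.69, 10.80, 10.24, 10.81 and 9.72 in CAR KO samples. CAR KO samples 1, 2 and 4 were at or above the highest WT value, whereas CAR KO samples 3 and 5 were the lowest of all 10. The difference of Ntn1 was -0.11 (interval -0.53 to 0.30), but 0.07 without CAR KO sample 5. Ntn4, a netrin of basement membranes, was at 7.84, 7.98, 7.80, 7.93 and 7.83 in WT and 7.86, 7.76, 7.57, 7.96 and 7.60 in CAR KO samples, with CAR KO samples 2, 3 and 5 below all WT samples. It differed by -0.13 (interval -0.31 to 0.05). Ntn3 differed by -0.12 (interval -0.33 to 0.09).

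All 4 Unc5 receptors were lower in CAR KO hearts by sign, but none passed the test. Unc5b and Unc5d kept this sign under the alternatives run, whereas Unc5a was at 0.03 with array weights and 0.02 without CAR KO sample 5, and Unc5c at 0.03 without WT sample 5 and 0.06 without CAR KO sample 4. Unc5b, a netrin receptor of arterial endothelium, had the smallest p of the 36 genes. Its values were 11.14, 10.80, 11.02, 10.98 and 10.93 in WT and 11.06, 10.88, 10.73, 10.87 and 10.58 in CAR KO samples. CAR KO samples 3 and 5 lay below all WT samples, and the others overlapped with them. The log2 fold change of Unc5b was -0.15 (interval -0.35 to 0.05, or -21.5% to 3.63%, unadjusted p = 0.131, adjusted p = 0.99997 from limma). Unc5d was at 7.11, 7.14, 7.12, 7.20 and 7.59 in WT and 7.09, 7.26, 7.01, 7.08 and 7.05 in CAR KO samples, and the difference of -0.13 became -0.04 without WT sample 5. Unc5a and Unc5c each differed by -0.05.

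Other components of these pathways came from lists of partners. Of 22 ephrin partners, 12 Slit and Robo partners and 12 netrin partners, 0 were called by limma. An unadjusted p under 0.05 was found for 1, 1 and 2 of them, all lower in CAR KO hearts. The same held for 1.43% of all clusters and for 314 of the 14688 genes above background. The medians of the partner lists were -0.018, -0.052 and -0.078. Ntng2 and Ptk2 have no row of their own. Dcc, the attractive netrin receptor, was at 7.20, 7.20, 7.45, 7.49 and 7.48 in WT and 7.10, 7.30, 6.88, 7.36 and 6.83 in CAR KO samples. CAR KO samples 3 and 5 were again the lowest. The log2 fold change of Dcc was -0.27 (interval -0.52 to -0.02, unadjusted p = 0.0353, adjusted p = 0.99997 from limma), and without samples 5 of both genotypes it was -0.17 (unadjusted p = 0.161).

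Rgmb, a membrane-anchored ligand of neogenin, averaged 9.56 ± 0.11 (SD, n = 5) in WT hearts, against 9.37 ± 0.11 (SD, n = 5) in the knockout. Its difference was -0.19 (unadjusted p = 0.0202), and its unadjusted p was under 0.05 in 20 of 23 alternatives, with a smallest adjusted p of 0.775. Abl1, a kinase in Eph and Robo signalling, differed by -0.16 (unadjusted p = 0.0387) and Gpc1, a heparan sulfate proteoglycan that binds Slit, by -0.14 (unadjusted p = 0.0453). Without samples 5 of both genotypes their unadjusted p-values were 0.157 and 0.151. Over the 23 alternatives the unadjusted p was under 0.05 in 14 for Dcc, 13 for Abl1 and 11 for Gpc1. The alternatives reuse the same arrays, and Rgmb, Abl1 and Gpc1 were named for their p in these data. Neo1, which encodes neogenin, differed by -0.10 (unadjusted p = 0.131).

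Slit2, Efna3, Epha3 and Ntn1 were among the most variable genes between samples of one genotype. The median pooled SD of the 32 genes above background was 0.162, against 0.128 over all genes above background. These 4 genes had pooled SDs of 0.437, 0.436, 0.421 and 0.354, with percentiles of 98.4, 98.3, 98.2 and 97.4. At the other end stood Ephb6 (0.0645) and Epha1 (0.0741), with percentiles of 7.37 and 12.6. WT sample 5 was the highest or lowest WT sample for 25 of the 36 genes and CAR KO sample 5 the highest or lowest CAR KO sample for 22, whereas the other samples were so for 4 to 17 genes.

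These 2 samples also stood apart in the means of several marker lists. The mean of 12 cardiomyocyte markers was 12.90 in WT sample 5 and 12.83 in CAR KO sample 5, below the other 8 samples (13.08 to 13.17). The mean of 12 endothelial and endocardial markers was likewise lowest in them (10.56 and 10.39). In contrast the means of 10 cushion mesenchyme markers (10.95 and 10.96) and 10 foregut epithelium markers (8.34 and 8.51) were the highest of their genotypes. So were those of 16 liver and yolk sac markers (8.92 and 9.82) and 8 macrophage markers (8.06 and 8.04). Other lists parted the 2 samples. The neural and neural crest mean was the highest WT value in WT sample 5 (7.71) but the lowest CAR KO value in CAR KO sample 5 (7.23). The epicardial mean was the lowest CAR KO value in CAR KO sample 5 (9.47), whereas WT sample 5 (9.92) lay within the range of the other WT samples. All foregut and cushion markers lay above background, as did 15 of the 16 liver markers, without Apom, and 7 of the 8 macrophage markers, without Adgre1. Some single markers did not follow the mean of their list. Vcan, a cushion marker, was the lowest of its genotype in both samples 5 (12.41 in WT, 12.30 in CAR KO). CAR KO sample 5 was the lowest CAR KO sample for Snai1 (9.77), Prrx2 (10.09), Nkx2-1 (6.49) and Cubn (6.60). WT sample 5 was the lowest WT sample for Amn (7.17). Among endothelial markers, CAR KO sample 5 was not the lowest CAR KO sample for Kdr (11.08), Cldn5 (8.05) and Cdh5 (11.95). Nor was WT sample 5 the lowest WT sample for Cldn5 (7.78), Emcn (11.73), Ets1 (9.86) and the cardiomyocyte marker Myl2 (13.64). The part of other tissues in the values of the guidance genes was not tested.

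**Figure D4:**
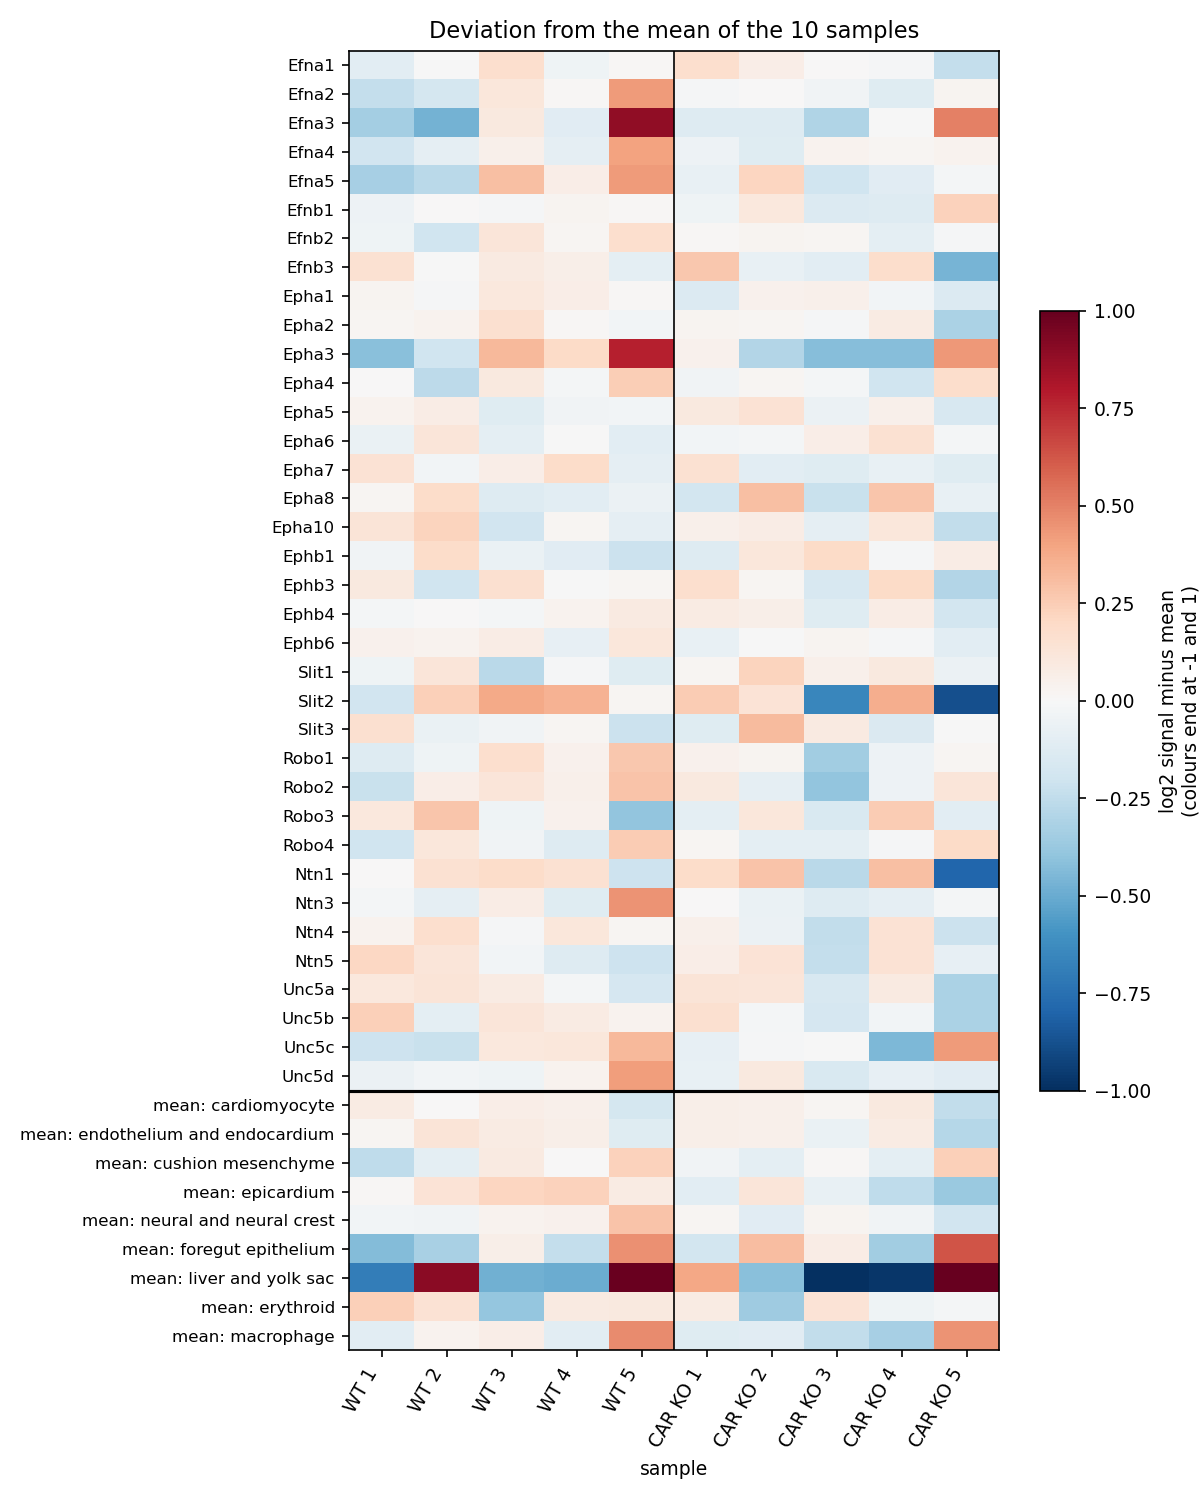
Log2 signal of 36 guidance genes and means of 9 marker lists in each of the 10 samples, as the deviation from the mean over all samples (red above, blue below, colours end at -1 and 1). Efna3 and Epha3 stand above their mean in samples 5 of both genotypes, and Slit2 and Ntn1 far below it in CAR KO sample 5.

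Between genotypes the marker lists overlapped in range. The cardiomyocyte mean ran from 12.90 to 13.16 over WT samples and from 12.83 to 13.17 over CAR KO samples. For the endothelial list these ranges were 10.56 to 10.80 and 10.39 to 10.76, and for the cushion list 10.47 to 10.95 and 10.62 to 10.96. The remaining ranges, WT first, were 7.46 to 8.34 and 7.54 to 8.51 for foregut, 7.24 to 8.92 and 6.83 to 9.82 for liver and yolk sac, and 7.48 to 8.06 and 7.26 to 8.04 for macrophages. The 7 epicardial markers were all lower in CAR KO hearts, with a mean per sample of 9.85 to 10.07 in WT and 9.47 to 9.96 in CAR KO samples. Of these 7, 4 had an unadjusted p under 0.05 from limma and none was called. Lower with such a p were also 2 cushion markers and 1 marker each of the cardiomyocyte, neural and macrophage lists. The same held for 1.43% of all clusters and for 314 of the 14688 genes above background. Of 9 neural and neural crest markers 7 were above background, without Tubb3 and Dcx, at 7.38 to 7.71 in WT and 7.23 to 7.44 in CAR KO samples. The 7 erythroid markers were at 11.27 to 11.90 and 11.30 to 11.79.

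Some pairs of guidance genes had a high correlation across the 10 samples, but no pair passed the correction. Of 630 pairs computed, 0 had an adjusted permutation p under 0.05, and the pairs described here are a selection. The permutations exchanged all 10 samples freely, without regard to the sample numbers. For Ntn1 and Slit2, Pearson's r was 0.90 (permutation p = 0.00121, adjusted p = 0.0922) and Spearman's rho 0.79 (permutation p = 0.00849). It was 0.92 for deviations from the genotype means, and 0.63 without the 2 samples farthest from the median of Ntn1, CAR KO samples 3 and 5. For Efna3 and Epha3 r was 0.84 (permutation p = 0.00173, adjusted p = 0.0922) and rho 0.71 (permutation p = 0.0273). From the genotype means r was 0.89, but it was 0.51 without samples 5 of both genotypes, on which this relation in part rested. Robo1 and Robo2 had an r of 0.92 (permutation p = 0.00028, adjusted p = 0.0882) and a rho of 0.81 (permutation p = 0.00712), with an r of 0.91 for deviations from the genotype means and 0.72 without WT sample 5 and CAR KO sample 3.

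Against the 9 marker lists, 324 relations were computed and 0 passed the correction. The relations given here are a selection. Ntn1 followed the endothelial and endocardial mean (r = 0.95, permutation p = 0.00085, adjusted p = 0.0659, rho = 0.66, permutation p = 0.043), with an r of 0.83 without CAR KO samples 3 and 5. It also followed the cardiomyocyte mean (r = 0.85, permutation p = 0.00643, adjusted p = 0.0906, rho = 0.68, permutation p = 0.034), with 0.80 without the same samples and 0.43 without samples 5 of both genotypes. Epha3 varied with the cushion mesenchyme mean (r = 0.86, permutation p = 0.00113, adjusted p = 0.0659, rho = 0.69, permutation p = 0.0317) and as closely with the macrophage mean (r = 0.86, permutation p = 0.0009, adjusted p = 0.0659, rho = 0.88, permutation p = 0.00155). Without samples 5 of both genotypes these were 0.68 and 0.64. Unc5a and Epha2 also followed the endothelial mean (r = 0.93 and 0.89, permutation p = 0.00109 and 0.0009, adjusted p = 0.0659, rho = 0.61 and 0.88, permutation p = 0.0656 and 0.00168). Their r was 0.77 and 0.54 without samples 5 of both genotypes. Robo4 varied with the liver and yolk sac mean (r = 0.85, permutation p = 0.00244, adjusted p = 0.0659, rho = 0.73, permutation p = 0.0205), with 0.72 without samples 5. Unc5c, a receptor of migrating cells, varied with the cushion mesenchyme mean as well (r = 0.86, permutation p = 0.00203, adjusted p = 0.0659, rho = 0.91, permutation p = 0.00058), with 0.90 without CAR KO samples 4 and 5 but 0.64 without samples 5 of both genotypes. Its r was 0.84 with the foregut mean, 0.82 with the macrophage mean and -0.79 with the cardiomyocyte mean (permutation p = 0.0019, 0.00368 and 0.00493, rho = 0.79, 0.67 and -0.61, permutation p = 0.00902, 0.0392 and 0.0662), and these became 0.60, 0.48 and -0.28 without samples 5. Efnb2, with a pooled SD of 0.107, had an r of -0.33 with the endothelial mean (permutation p = 0.331, rho = -0.27, permutation p = 0.448).

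**Figure D5:**
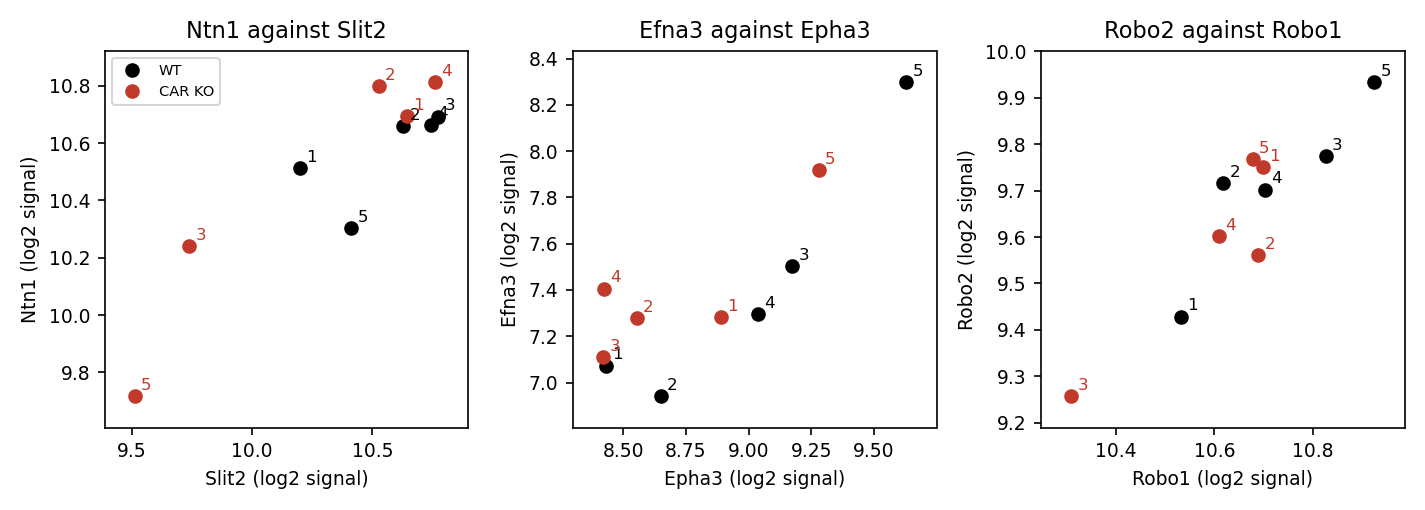
Log2 signals of Ntn1 against Slit2, Efna3 against Epha3 and Robo2 against Robo1 in 5 WT (black) and 5 CAR KO (red) samples, with the sample number beside each point. CAR KO samples 3 and 5 form the lower end for Ntn1 and Slit2, and samples 5 of both genotypes the upper end for Efna3 and Epha3.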

How the data were processed

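The authors deposited log2 signals of 35556 rows for 10 arrays. The submitters' processing notes name MAS5, and further steps from scanner output to table are not given in the sources used here. Left out were 6612 control rows, and of the other 28944 rows, 21789 name 1 gene, 1621 several and 5534 none. Gene names came from the platform annotation, and all 36 members matched the GRCm38.p6 annotation by Entrez identifier. Samples were grouped by the genotype in their labels. Differences between genotypes came from limma's moderated test (version 3.58.1, R 4.3.3), run without trend or filter on all 28944 rows and adjusted by Benjamini-Hochberg, and, for single values, with two-sided exact permutation tests. The procedure was tested on simulated data. Correlations across samples were given with permutation tests of 100000 resamples, adjusted within each family of relations. These permutations treated all 10 samples as interchangeable. They did not take into account that deviations of same-numbered samples correlated at 0.117 to 0.568 over rows above background. The number of arrays limits the precision.

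Members, partner lists, 9 marker lists and tests were chosen with earlier results of these data known. Values in every sample are given for the 6 members with the smallest p and for those best known in heart and vessels (17 in all by this rule). Efna3 and the partner Dcc are given likewise, Efna3 because its spread was seen to be large. Of the partners, those with an unadjusted p under 0.05, Dcc and Neo1 are named. Alternatives concerned the scale (quantile normalization, array medians), the rows (2 filters on dim rows, rows of 1 gene only, the mean of a gene's rows), the test (robust prior with trend, the methods' t-test, array weights), the design (a block by sample number, a liver covariate) and the samples. Each sample was left out in turn, as were the 3 with most liver transcripts at once (samples 2 and 5 of WT, 5 of CAR KO). Chosen after seeing the data were leaving out samples 5 of both genotypes together, and a cardiomyocyte covariate. Figures were drawn with matplotlib 3.10.9, and promoter windows were read from RefSeq (GRCm38.p6).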

Additional observations from a re-analysis of the deposited data

Results flagged for a closer look

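Among 84 groups of 5 samples examined, 4 held a sample far from the others by Dixon's gap, the distance to the nearest sample as a share of the range, where chance gives about 1 in 20 groups (4.2). CAR KO sample 5 was far below the other CAR KO samples for Epha2 (0.755 of the range). CAR KO sample 1 was far above the others for Epha7 (0.832). CAR KO sample 3 was far below the others for Robo1 (0.768), and WT sample 5 far above the other WT samples for Unc5d (0.806).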

How the results depend on the processing

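Under 24 alternatives no member was called, and Cxadr was called in all that tested it (-1.97 to -1.84 with samples left out in turn). Members with an unadjusted p under 0.05 numbered 1 with array weights (Epha1), 1 without the 3 samples richest in liver transcripts (Slit1) and 0 to 2 with samples left out in turn (Slit1 without WT sample 2, Epha7 and Unc5b without CAR KO sample 1, Ntn4 without CAR KO sample 4). The median log2 fold change ran from -0.082 (without WT sample 2) to -0.025 with samples left out, and was -0.010 without samples 5 of both genotypes. The cause was not tested. Intervals within 1.5-fold numbered 32 to 34 with samples left out, 29 of 31 and 30 of 32 with the dim filters. With the methods' t-test they numbered 32 of 36. Of 855 values of single members under alternatives, 84 changed sign and 0 moved by more than the pooled SD, and 15 members kept their sign throughout. Members lower in CAR KO hearts numbered 20 to 31 of 36 over alternatives that kept all members. When sample numbers entered as a replicate block, 0 members were called, 0 had an unadjusted p under 0.05, the median was -0.043 and 34 intervals lay within 1.5-fold. The pairing by number was checked through deviations from the group means, which correlated between same-numbered samples at 0.0727 to 0.561 over all rows (0.117 to 0.568 over rows above background). The best match was the same number for 4 of the 5 CAR KO samples, which the design does not state. The number of arrays, 5 per genotype, limited the precision to the widths of the intervals given.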
